A study of Mus musculus with 24 samples.

Results

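The genes described here build the calcium store of the heart muscle cell, the sarcoplasmic reticulum, and the machinery that empties and refills it at each beat. They are Atp2a2, Pln, Ryr2, Casq2, Hrc, Asph, Trdn, Jph2 and Slc8a1, 9 of the 18193 genes measured. They were chosen by name, with earlier results of these data known, so their counts beside all genes are descriptions. Where a gene had several probe sets, the brightest on average over the 24 arrays stood for it, and the remainder served as a check. The 9 genes have 31 probe sets in all. Left ventricle and lung of mice were measured on Affymetrix arrays, with 3 arrays in each of 8 groups, 4 of them from the ventricle. All animals were CD-1 mice of 20 weeks, labelled male. Wild type (WT) mice were compared with dnCREB mice, in which a myosin heavy chain promoter restricted to heart muscle cells drives a dominant negative CREB1, a factor that when intact activates genes downstream of cAMP. The mice of each genotype received phosphate-buffered saline (PBS) or 20 mg/kg of particulate matter (PM) of 1.9 µm, and the labels give a harvest at 36 h for the PM groups. On the PM ventricle samples that label speaks of a lung harvest, and the same time was assumed for the ventricle. No harvest time is given for the PBS groups. The series describes the dnCREB line as a model of cardiac failure. The labels do not say whether replicates came from separate litters or how many founders the line had, so the p-values measure only the spread between these arrays.

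In a ventricular muscle cell, calcium that enters through channels of the surface membrane opens the ryanodine receptor, and the store then releases far more calcium onto the contractile filaments. Relaxation follows when the pump SERCA returns calcium to the store and the sodium-calcium exchanger moves the rest out of the cell. Phospholamban holds SERCA back until it is phosphorylated, and buffering and anchoring proteins keep the stored calcium beside the release channel. Loss of SERCA activity and leak through the ryanodine receptor are known features of failing hearts.

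The genotype labels held on every ventricle array. The Creb1 probe set 1421582_a_at lay between 2.51 and 3.29 on the log2 scale in the 6 WT hearts and between 9.05 and 12.00 in the 6 dnCREB hearts. The tissue label held as well, since the 10 cardiomyocyte markers were above a log2 value of 4 on every ventricle array and the surfactant genes Sftpc, Sftpb and Sftpa1 were at or below it. The label "male" did not hold: Xist, transcribed from the inactive X chromosome of females, lay between 12.05 and 13.05 in all 6 WT hearts. In 5 dnCREB hearts it lay between 2.90 and 3.05, with the Y-linked gene Eif2s3y between 10.26 and 11.29. The dnCREB PM array 3 was Xist-high at 13.71. Genotype and sex class therefore moved together in all but 1 ventricle array, and their parts in a genotype difference were not separable except through that array. Values with sex class as a covariate, and without that array, are given for each of the 9 genes that was called. For the wider list described below they are given as counts and for some genes only. Without that array genotype and sex class coincide fully, so those values cannot separate them and show only how far a difference rested on it. The deposited values carry no counts, and the number of arrays limits the precision.

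All 9 genes passed the filter in ventricle, a log2 value over 4 on at least 3 arrays, with 9962 genes tested together. The test was limma's moderated test with 4 group means over the 12 ventricle arrays, and a gene was called at a Benjamini-Hochberg adjusted p under 0.05 over all genes tested. Between the genotypes, the release channel and the proteins around it (Ryr2, Hrc, Trdn, Jph2) were called lower in dnCREB hearts, the pump Atp2a2, by its main probe set, and its inhibitor Pln were lower by a smaller amount, Asph was called higher by its main probe set, and Casq2 and Slc8a1 were not called. Averaged over PBS and PM, 6 of the 9 genes were called lower and 1 higher, where 13.6% of all genes tested were called lower and 22.3% higher (35.9% called). The median log2 difference of the 9 genes was -0.24, against 0.05 for all genes tested. Under PBS alone, 3 were called lower and 1 higher, against 5.6% and 13.2% of all genes (18.8% called). Under PM alone, 4 were called lower and none higher, against 9.13% and 11.4% (20.5% called). These counts moved with the arrays: with 1 array left out, 1 to 3 of the 9 were called under PBS, 1 to 3 under PM and 6 to 7 averaged. With sex class as a covariate, 0 were called under PBS, 2 lower under PM (Hrc and Jph2) and 2 lower averaged (Ryr2 and Jph2), and none higher. In each of these comparisons 6 of the 9 genes had all dnCREB arrays below all WT arrays, which held for 16.9% of all genes under PBS, 16.2% under PM and 8.69% over all 12 arrays. For 1 gene, Asph, all dnCREB arrays lay above, as for 25.8%, 20.2% and 12.3% of all genes. The study's ventricle is bulk tissue, so a lower share of muscle cells and less RNA per muscle cell cannot be told apart.

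**Figure D1:**
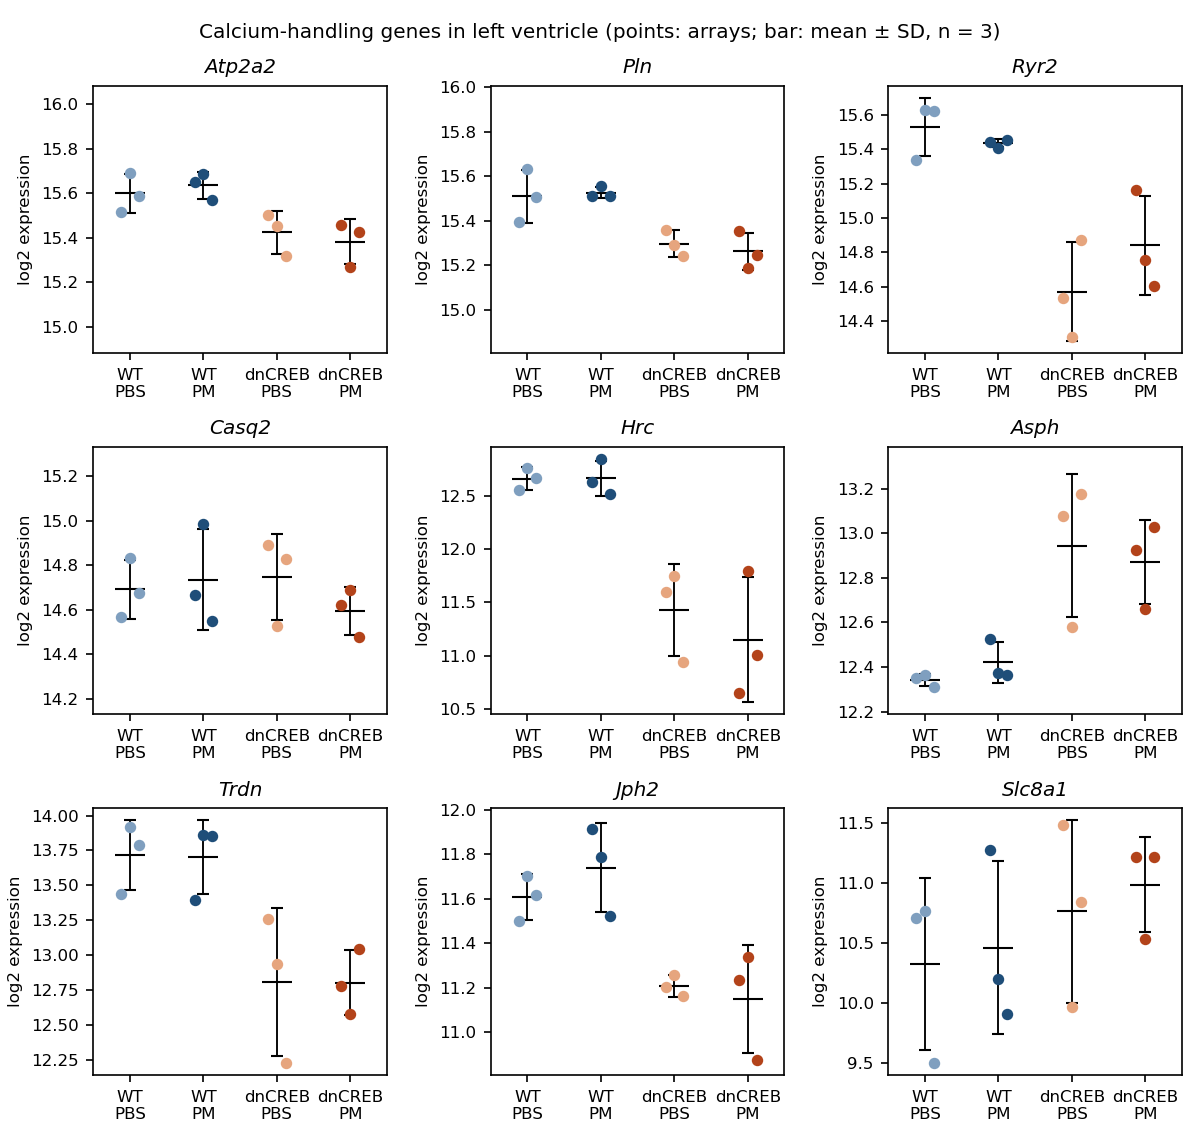
Log2 expression (y axis, deposited GCRMA values, each panel on its own scale) of the 9 genes in the 4 ventricle groups, with each array as a point and the mean ± SD of n = 3 as bars. The dnCREB arrays lie below every WT array for Atp2a2, Pln, Ryr2, Hrc, Trdn and Jph2 and above for Asph, while PBS and PM arrays of a genotype overlap in every panel.

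Promoter sequence is shown for 4 of the genes that were lower in dnCREB hearts, since CREB1 binds DNA at the cAMP response element and these genes fell together. Of the 9 genes, 6 matched a window in the RefSeq promoter table (build GRCm38.p6), and Atp2a2, Asph and Trdn are named only. Each stretch below holds the 200 bases before the annotated start, written 5′ to 3′ on the gene's own strand, and capitals mark a match to the GATA motif AGATAA, here in its reverse complement. They lie at chr10:53337486-53337685 on the plus strand for Pln, chr13:12106946-12107145 on the minus strand for Ryr2, chr7:45335069-45335268 on the plus strand for Hrc and chr2:163397994-163398193 on the minus strand for Jph2.
Pln: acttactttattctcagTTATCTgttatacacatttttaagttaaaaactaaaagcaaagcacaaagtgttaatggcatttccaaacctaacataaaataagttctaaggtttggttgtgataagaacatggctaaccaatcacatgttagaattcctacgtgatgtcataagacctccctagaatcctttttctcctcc
Ryr2: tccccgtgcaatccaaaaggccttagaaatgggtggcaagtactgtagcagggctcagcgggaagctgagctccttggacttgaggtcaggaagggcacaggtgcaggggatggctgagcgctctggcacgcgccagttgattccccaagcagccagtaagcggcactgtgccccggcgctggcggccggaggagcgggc
Hrc: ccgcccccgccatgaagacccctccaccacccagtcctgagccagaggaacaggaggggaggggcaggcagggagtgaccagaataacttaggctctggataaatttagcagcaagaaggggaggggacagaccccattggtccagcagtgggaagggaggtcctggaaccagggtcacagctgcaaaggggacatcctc
Jph2: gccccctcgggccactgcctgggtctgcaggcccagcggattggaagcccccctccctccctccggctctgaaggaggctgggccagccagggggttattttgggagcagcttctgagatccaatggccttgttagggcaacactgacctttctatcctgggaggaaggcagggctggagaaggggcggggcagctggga
The full cAMP response element TGACGTCA and its shorter form TGACG, which lies inside it, were searched on both strands of the 250 bases before the start. Neither was found in the windows of Pln, Ryr2, Casq2, Hrc, Jph2 or Slc8a1. Among all 32851 windows of that length, 1.55% held the full element and 17.8% the shorter form. The GATA motif was found in 9.99% of all windows, and of the 6 genes in Pln, starting 183 bases before the start, and in Slc8a1, starting 68 bases before it. A match is a description of the letters, and a missing match says only that these letters are not in this window. The share of G and C was 32.8% in the Pln window, 59.6% in Hrc, 62.0% in Jph2 and 63.2% in Ryr2, beside a median of 52.4% over all windows.

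The ryanodine receptor gene Ryr2, which encodes the channel that releases calcium from the store, fell in dnCREB hearts under both treatments. Its log2 values were 15.34, 15.63 and 15.62 in WT PBS hearts and 15.44, 15.41 and 15.45 in WT PM hearts, against 14.54, 14.31 and 14.87 in dnCREB PBS hearts and 15.16, 14.76 and 14.60 in dnCREB PM hearts. The highest dnCREB array, replicate 1 under PM, still lay below the lowest WT array. The log2 difference from WT under PBS was -0.96 ± 0.18 (SE, adjusted p = 0.0048). Under PM it was -0.59 ± 0.18 (adjusted p = 0.038), and averaged over both it was -0.78 ± 0.12 (adjusted p = 0.00099), a level that fell by 41.6%. The second Ryr2 probe set, 1421126_at, differed by -2.13 ± 0.44 in the averaged comparison (adjusted p = 0.0046 over all probe sets), with WT arrays between 7.45 and 9.59 and dnCREB arrays between 4.98 and 7.90. The PM call was lost when any of 5 of the 6 arrays compared was left out, with a log2 difference of -0.47 (adjusted p = 0.12) without the Xist-high dnCREB array, while the averaged difference without that array was -0.72 (adjusted p = 0.0028). With sex class as a covariate the averaged difference was -1.07 ± 0.24 (adjusted p = 0.029).

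Triadin (Trdn) and the histidine-rich calcium-binding protein (Hrc), which tie the release channel to the calcium buffers of the store, fell as well. Hrc read 12.56, 12.77 and 12.68 in WT PBS hearts and 12.63, 12.85 and 12.52 in WT PM hearts. It read 11.60, 11.75 and 10.94 in dnCREB PBS hearts and 10.65, 11.80 and 11.00 in dnCREB PM hearts. The WT arrays sat within a narrow band and the dnCREB arrays were spread below it. The log2 difference under PBS was -1.24 ± 0.28 (SE, adjusted p = 0.013). Under PM it was -1.52 ± 0.28 (adjusted p = 0.0051). Averaged, it was -1.38 ± 0.20 (adjusted p = 0.00053): the level fell by 61.5%, the most of the 9 genes by their main probe sets. Hrc has a single probe set on the array. Without dnCREB PBS replicate 3 its PBS difference was -0.99 (adjusted p = 0.051), and without the Xist-high dnCREB array its averaged difference was -1.34 (adjusted p = 0.0019). Sex class as a covariate over all 12 arrays gave -1.56 ± 0.42, not called (adjusted p = 0.051).

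Trdn read 13.44, 13.92 and 13.79 in WT PBS hearts and 13.39, 13.86 and 13.85 in WT PM hearts, against 13.26, 12.94 and 12.23 in dnCREB PBS hearts and 12.78, 12.58 and 13.04 in dnCREB PM hearts. All 6 dnCREB arrays lay below all 6 WT arrays, though the highest of them, replicate 1 under PBS, came close to the lowest WT array. The log2 difference was -0.91 ± 0.26 (SE) under PBS (adjusted p = 0.035), -0.90 ± 0.26 under PM (adjusted p = 0.033) and -0.90 ± 0.18 averaged (adjusted p = 0.0035), and the level fell by 46.6%. Each single-treatment call was lost in 4 of 6 fits with 1 array left out, where the adjusted p reached 0.11 under PBS and 0.10 under PM, and the averaged call held in all 12 such fits, with -0.97 (adjusted p = 0.0054) without the Xist-high dnCREB array. With sex class as a covariate the averaged difference was -0.60 ± 0.37 and not called (adjusted p = 0.39). Of the 6 Trdn probe sets, 4 were called lower in the averaged comparison, 1426144_x_at differed by -0.59 ± 0.21 (adjusted p = 0.058), and 1426143_at, near the filter level with group means from 3.67 to 3.88, differed by 0.09 ± 0.22 (adjusted p = 0.78).

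Junctophilin 2 (Jph2), which holds the store membrane close to the surface membrane so that entry and release channels face each other, was lower by a smaller amount. Its log2 values were 11.50, 11.70 and 11.62 in WT PBS hearts, 11.91, 11.79 and 11.52 in WT PM hearts, 11.20, 11.26 and 11.16 in dnCREB PBS hearts and 11.23, 11.34 and 10.88 in dnCREB PM hearts. The groups of different genotype did not overlap, and the lowest value was that of the Xist-high dnCREB array. The difference was -0.40 ± 0.14 (SE) under PBS (adjusted p = 0.080), -0.59 ± 0.14 under PM (adjusted p = 0.017) and -0.49 ± 0.10 averaged (adjusted p = 0.0039), and the level fell by 29.0%. The second probe set, 1421453_at, differed by -0.85 ± 0.24 (adjusted p = 0.022). Without the Xist-high array the PM difference was -0.45 (adjusted p = 0.055) and the averaged difference -0.43 (adjusted p = 0.0070). With sex class as a covariate the averaged difference was -0.84 ± 0.17 (adjusted p = 0.020).

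Calsequestrin 2 (Casq2), the main calcium buffer inside the store, was not called in any comparison. Its log2 values ran from 14.55 to 14.99 in the 6 WT hearts and from 14.48 to 14.89 in the 6 dnCREB hearts, and the groups overlapped. The differences were 0.06 ± 0.15 (SE) under PBS (adjusted p = 0.82), -0.14 ± 0.15 under PM (adjusted p = 0.54) and -0.04 ± 0.10 averaged (adjusted p = 0.78). Whether the Casq2 difference was itself unlike those of Hrc or Trdn was not tested.

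The pump gene Atp2a2, which encodes SERCA2, was the gene of the 9 whose probe sets spanned the widest range of averaged differences. By its main probe set, 1416551_at, it read 15.52, 15.69 and 15.59 in WT PBS hearts and 15.65, 15.69 and 15.57 in WT PM hearts, against 15.50, 15.45 and 15.32 in dnCREB PBS hearts and 15.46, 15.27 and 15.43 in dnCREB PM hearts. All dnCREB arrays lay below all WT arrays, by little for the nearest pair. The difference was -0.18 ± 0.10 (SE) under PBS (adjusted p = 0.25), -0.25 ± 0.10 under PM (adjusted p = 0.10) and -0.21 ± 0.07 averaged (adjusted p = 0.038), and the level fell by 13.8%. The averaged call was lost in 8 of the 12 fits with 1 array left out, with adjusted p from 0.041 to 0.083, and without the Xist-high dnCREB array the difference was -0.22 (adjusted p = 0.053). The fit of all 12 arrays with sex class gave -0.16 ± 0.15, not called (adjusted p = 0.60). The call was also lost after quantile normalization (-0.09, adjusted p = 0.28) and when each array was centred on the cardiomyocyte markers (-0.09, adjusted p = 0.35).

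All 6 Atp2a2 probe sets were called lower in the averaged comparison, and their differences ranged from -0.21 to -2.31. The main probe set lay above 99.78% to 99.86% of all probe sets across the ventricle arrays, and so near the top of the scale. The probe set 1452363_a_at, brighter than the main one in each ventricle group (means from 15.56 to 15.84), differed by -0.25 ± 0.07 (SE, adjusted p = 0.025). The probe set 1427250_at, of group means from 13.15 to 13.64, differed by -0.41 ± 0.07 (adjusted p = 0.0016). The 3 dimmer probe sets differed more: 1427251_at by -1.03 ± 0.14 (adjusted p = 0.00040), 1437797_at by -1.84 ± 0.20 (adjusted p = 0.00013) and 1443551_at by -2.31 ± 0.27 (adjusted p = 0.00019). On 1443551_at the WT PBS hearts read 10.37, 10.49 and 11.52 and the WT PM hearts 10.37, 10.59 and 11.06, while the dnCREB PBS hearts read 8.71, 9.55 and 8.14 and the dnCREB PM hearts 8.15, 7.79 and 8.18. Which transcript forms each probe set detects was not examined, and the part of signal brightness in these sizes was not tested.

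Phospholamban (Pln), the small membrane protein that inhibits SERCA2, was lower in dnCREB hearts by about as much as the bright Atp2a2 probe sets. Its log2 values were 15.39, 15.63 and 15.51 in WT PBS hearts, 15.51, 15.56 and 15.51 in WT PM hearts, 15.36, 15.29 and 15.24 in dnCREB PBS hearts and 15.35, 15.19 and 15.25 in dnCREB PM hearts. The averaged difference was -0.24 ± 0.07 (SE, adjusted p = 0.021), where the level fell by 15.2%, and neither treatment alone was called (adjusted p = 0.15 under PBS and 0.081 under PM). Its 3 probe sets agreed in direction and size (-0.24, -0.34 and -0.34) and all were called in the averaged comparison. Without the Xist-high dnCREB array the averaged difference was -0.23 (adjusted p = 0.040), and with sex class as a covariate it was -0.26 ± 0.14 and not called (adjusted p = 0.33). The call was lost after quantile normalization (-0.12, adjusted p = 0.13) and with centring on the cardiomyocyte markers (-0.12, adjusted p = 0.22). Within each array, the log2 value of Atp2a2 minus that of Pln averaged 0.09 and 0.11 in the WT PBS and WT PM hearts and 0.13 and 0.12 in the dnCREB hearts. This pump-to-inhibitor difference shifted by 0.02 between genotypes. The pooled SD of 0.04 is the spread of single arrays within a group and not the error of that shift, which was not tested. With the brighter Atp2a2 probe set 1452363_a_at in place of the main one the shift was -0.011, and with the dimmer ones it reached -2.07.

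Over all 9 genes, 29 of the 31 probe sets were tested in ventricle. In the averaged comparison 20 were called lower and 1 higher, where 13.1% of 16693 probe sets were called lower and 19.3% higher (32.5% called). Under PBS 8 were called lower and 1 higher (5.49% and 10.9% of all, 16.4% called), and under PM 13 were called lower and none higher (8.12% and 9.42% of all, 17.5% called). Probe sets of the same gene share their samples and often their transcript, so they are not separate evidence.

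**Figure D2:**
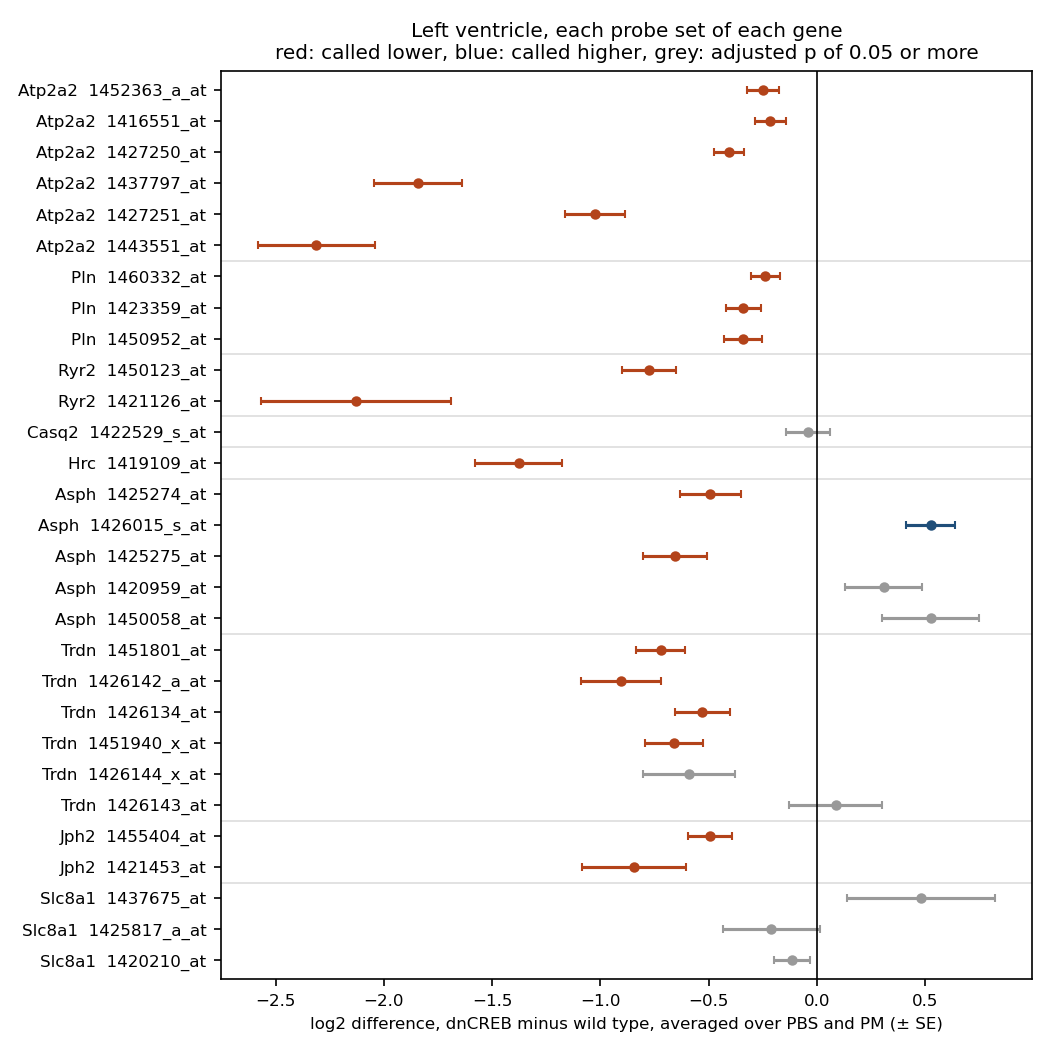
Log2 difference between dnCREB and WT hearts (x axis, averaged over PBS and PM, ± SE) for the 29 tested probe sets of the 9 genes, with red called lower, blue called higher and grey not called. Of these, 20 are called lower and 1 higher, Atp2a2 spans -0.21 to -2.31, and the Asph probe sets lie on both sides of 0.

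The gene Asph encodes aspartate beta-hydroxylase and, through other transcripts of the same gene, junctin and junctate, of which junctin sits beside triadin at the release channel. Its main probe set, 1426015_s_at, was higher in dnCREB hearts, with 12.35, 12.37 and 12.31 in WT PBS hearts, 12.53, 12.37 and 12.36 in WT PM hearts, 13.08, 12.58 and 13.18 in dnCREB PBS hearts and 12.93, 12.66 and 13.03 in dnCREB PM hearts. All dnCREB arrays lay above all WT arrays. The difference was 0.60 ± 0.16 (SE) under PBS (adjusted p = 0.025), 0.45 ± 0.16 under PM (adjusted p = 0.070) and 0.53 ± 0.11 averaged (adjusted p = 0.0048). The PBS call was lost in 5 of 6 fits with 1 array left out (adjusted p up to 0.099), and without the Xist-high array the averaged difference was 0.49 (adjusted p = 0.013). Sex class as a covariate over all 12 arrays gave 0.72 ± 0.23, not called (adjusted p = 0.084).

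A pair of other Asph probe sets moved the opposite way. The probe set 1425275_at read 12.41, 12.15 and 12.28 in WT PM hearts and 10.88, 11.66 and 10.97 in dnCREB PM hearts, with no overlap. It differed by -1.11 under PM (adjusted p = 0.0060), by -0.20 under PBS (adjusted p = 0.54) and by -0.66 ± 0.15 (SE) averaged (adjusted p = 0.0069). The probe set 1425274_at differed by -0.93 under PM (adjusted p = 0.011), by -0.05 under PBS (adjusted p = 0.89) and by -0.49 ± 0.14 averaged (adjusted p = 0.023). Of the 2 others tested, 1420959_at differed by 0.31 (adjusted p = 0.21) and 1450058_at by 0.53 (adjusted p = 0.098). The gene showed no single direction on this array, and which of its transcripts each probe set reports was not examined.

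The sodium-calcium exchanger gene Slc8a1 varied more between arrays than between groups. It read 10.71, 10.77 and 9.51 in WT PBS hearts, 11.28, 10.20 and 9.91 in WT PM hearts, 11.48, 9.97 and 10.84 in dnCREB PBS hearts and 11.22, 10.54 and 11.21 in dnCREB PM hearts. The groups overlapped, and the averaged difference of 0.48 ± 0.34 (SE) was not called (adjusted p = 0.29). The other tested probe sets, 1425817_a_at and 1420210_at, differed by -0.21 ± 0.22 (adjusted p = 0.49) and -0.11 ± 0.08 (adjusted p = 0.32). Within each array, Slc8a1 minus Atp2a2 shifted by 0.69 between genotypes, beside a pooled SD of 0.64 for single arrays within a group. That SD is not the error of the shift, which was not tested.

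In the fits with sex class as a covariate, its separation from genotype rested on dnCREB PM array 3 alone, and the 7 called genes each kept their direction in the averaged comparison. The Xist-high dnCREB heart, of the same class as the 6 WT hearts, lay below all 6 of them for Atp2a2, Pln, Ryr2, Casq2, Hrc, Trdn and Jph2. It lay above all 6 for Asph and within their range for Slc8a1. The kept directions and these positions both rest on this 1 array, so they are not separate evidence. The share of all genes outside the WT range on that array was not counted. The same heart also lay below the other 5 dnCREB hearts for Casq2, which was not called, and for Jph2. It read 11.00 for Hrc, where the lowest WT heart read 12.52, and 14.60 for Ryr2, where the lowest WT heart read 15.34.

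Other cell types moved with genotype as well. The mean of the 10 cardiomyocyte markers was 15.12 to 15.37 on the WT arrays and 15.08 to 15.21 on the dnCREB arrays, and in the averaged comparison 3 of the 10 were called lower (Tnni3 -0.39, Tcap -0.37 and Myl3 -0.24) and none higher. The mean of the 6 fibroblast markers was 11.43 to 11.70 on the WT arrays and 11.93 to 13.52 on the dnCREB arrays, with 5 of 6 called higher. The mean of the 8 macrophage markers was 7.66 to 9.93 on the WT arrays and 9.41 to 10.32 on the dnCREB arrays, and all 8 were called higher. Of 5 atrial markers, Myl7, Sln and Bmp10 stayed at or below 4 on every ventricle array, and Nppa and Myl4 were called higher. Endothelial markers had 0 of 6 called. The part of fibroblast and macrophage RNA in the differences of the 9 genes was not tested. With each array centred on the cardiomyocyte markers Ryr2 (-0.65), Hrc (-1.26), Trdn (-0.78) and Jph2 (-0.37) stayed called lower and Asph (0.65) higher. That centring moved the median of all genes by 0.12 and the split of calls in the averaged comparison from 2224 higher and 1354 lower to 2930 and 862, while quantile normalization gave 1938 and 2140.

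Particulate matter made no difference that passed the test for any of the 9 genes in ventricle. In WT hearts the PM minus PBS differences of the main probe sets ran from -0.10 (Ryr2) to 0.14 (Slc8a1). No gene was called there, where 0.01% of all genes tested were called and 1.47% had an unadjusted p under 0.05. In dnCREB hearts they ran from -0.28 (Hrc) to 0.27 (Ryr2), with 0% of all genes called and 4.92% at an unadjusted p under 0.05. Averaged over genotypes and in the interaction of genotype and PM, 0% of all genes were called by limma, and 1.86% and 3.62% had an unadjusted p under 0.05. By main probe sets, the arrays of PBS and PM overlapped for every one of the 9 genes in both genotypes, whereas 5.44% of all genes in WT and 7.48% in dnCREB had no overlap. Other probe sets ranged further, though none of the 29 tested was called in either genotype. Ryr2 reached -0.68 in WT and 1.02 in dnCREB hearts, and in dnCREB hearts Atp2a2 reached -0.76 and Asph -0.72. On Asph 1425274_at all WT PM arrays (12.56 to 12.63) lay above all WT PBS arrays (12.12 to 12.47). The SE of a single PM difference ran from 0.10 for Atp2a2 and Pln to 0.28 for Hrc and 0.48 for Slc8a1, which sets the size of change that 3 arrays a group could show. The difference between genotypes was not shown to depend on PM: for Ryr2 the interaction was 0.37 and for Hrc -0.28, both at adjusted p = 0.98. On other probe sets the interaction reached 1.70 for Ryr2 and -0.93 for Asph, and none was called.

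A wider list of calcium-handling genes was read beside these 9. Of 54 listed genes, 48 were on the array by symbol and 37 were tested in ventricle. Averaged over PBS and PM, 5 were called higher and 8 lower, where 22.3% of all genes tested were called higher and 13.6% lower, and the median difference was -0.02 against 0.05 for all genes. Under PBS 4 were called higher and 4 lower, against 13.2% and 5.6% of all genes. Under PM 2 were called higher and 4 lower, against 11.4% and 9.13%. Over both directions, 13 of 37 is a share close to the 35.9% of all genes called, so the count is no result about the list. The values that follow describe single genes. None of the list was called in any PM against PBS comparison. Under PBS the 8 calls became 4 with no filter, 5 with the replicate block and 4 to 9 with 1 array left out, 4 of them without WT PBS replicate 1 or WT PBS replicate 3. Under PM the 6 calls became 4 to 7 with 1 array left out.

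When sex class was a covariate, the 13 averaged calls became 3, all lower. Tmem38a (-1.29 ± 0.18 SE, adjusted p = 0.0036) and Cacna1c (-0.87 ± 0.21, adjusted p = 0.037) were of the former 8. The other was Cav3 (-1.27 ± 0.15, adjusted p = 0.0018), which was not called before (-0.31, adjusted p = 0.20) and is named after its values were seen. Without the Xist-high dnCREB array Cav3 differed by -0.12 averaged (adjusted p = 0.25) and by 0.03 under PM (adjusted p = 0.92). Its value in the covariate fit therefore rests on that array. With the covariate all 5 higher calls and 6 of the 8 lower ones were lost, each in its former direction. Under PBS 2 lower and 0 higher were then called, and under PM 4 lower and 1 higher. Without the Xist-high dnCREB array all 13 averaged calls held, in a fit where genotype and sex class coincide and cannot be separated.

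The averaged differences below are from the fit without the covariate. Of the genes called in it, only Tmem38a and Cacna1c stayed called in the averaged comparison once the covariate was added. Cacna1c, the pore of the L-type calcium channel, was 12.51 ± 0.24 (SD, n = 3) in WT PBS hearts and 12.59 ± 0.16 in WT PM hearts, against 11.73 ± 0.13 and 11.78 ± 0.07 in dnCREB hearts. Its averaged difference was -0.79 ± 0.10 (SE, adjusted p = 0.00024), and that of its beta subunit gene Cacnb2 was -0.48 ± 0.16 (adjusted p = 0.043).

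Among the store proteins, Tmem38a, which encodes the TRIC-A channel that carries potassium against released calcium, was lower, with 13.01 ± 0.12 (SD, n = 3) and 13.09 ± 0.19 in WT PBS and WT PM hearts and 12.23 ± 0.10 and 12.24 ± 0.33 in the dnCREB groups. Its averaged difference was -0.82 ± 0.12 (SE, adjusted p = 0.00052). The junctophilin Jph1 fell by 0.63 ± 0.16 (adjusted p = 0.012), the chaperone Canx by 0.35 ± 0.08 (adjusted p = 0.0065), the inositol trisphosphate receptor Itpr2 by 0.57 ± 0.15 (adjusted p = 0.014), the mitochondrial exchanger Letm1 by 0.36 ± 0.12 (adjusted p = 0.034) and the kinase Camk2a by 0.57 ± 0.13 (adjusted p = 0.0081). Camk2a was called under PM (-0.81, adjusted p = 0.014) and not under PBS (-0.34, adjusted p = 0.24). The kinase genes Camk2d (0.21, adjusted p = 0.086) and Camk2g (0.16, adjusted p = 0.38) were not called in the averaged comparison. In the other direction, Fkbp1a, whose protein FKBP12 binds release channels, rose by 0.50 ± 0.11 (adjusted p = 0.0049). Orai1 and Stim2, the pore and a sensor of store-operated entry, also rose, Orai1 by 1.15 ± 0.18 (adjusted p = 0.00097) and Stim2 by 0.58 ± 0.16 (adjusted p = 0.017). The fit with sex class gave 0.71 (adjusted p = 0.27) and 0.41 (adjusted p = 0.53). Without the covariate, Orai1 was called under PM (1.74, adjusted p = 0.0017) and not under PBS (0.55, adjusted p = 0.17). Stim2 was called under neither treatment alone (adjusted p = 0.096 under PBS and 0.10 under PM). The sensor gene Stim1 was not called (-0.02 averaged, adjusted p = 0.88). The pump Atp2a3 rose by 0.99 ± 0.28 (adjusted p = 0.021). Atp2b1, a pump of the surface membrane, was called under PBS only (0.72 ± 0.20, adjusted p = 0.032). It differed by -0.10 under PM (adjusted p = 0.77) and by 0.31 averaged (adjusted p = 0.11), neither called. Bin1, which shapes the membrane tubules facing the store, rose by 1.81 ± 0.31 (adjusted p = 0.0014), from group means of 4.02 and 4.13 in WT hearts, at the filter level, to 6.04 and 5.74.

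**Figure D3:**
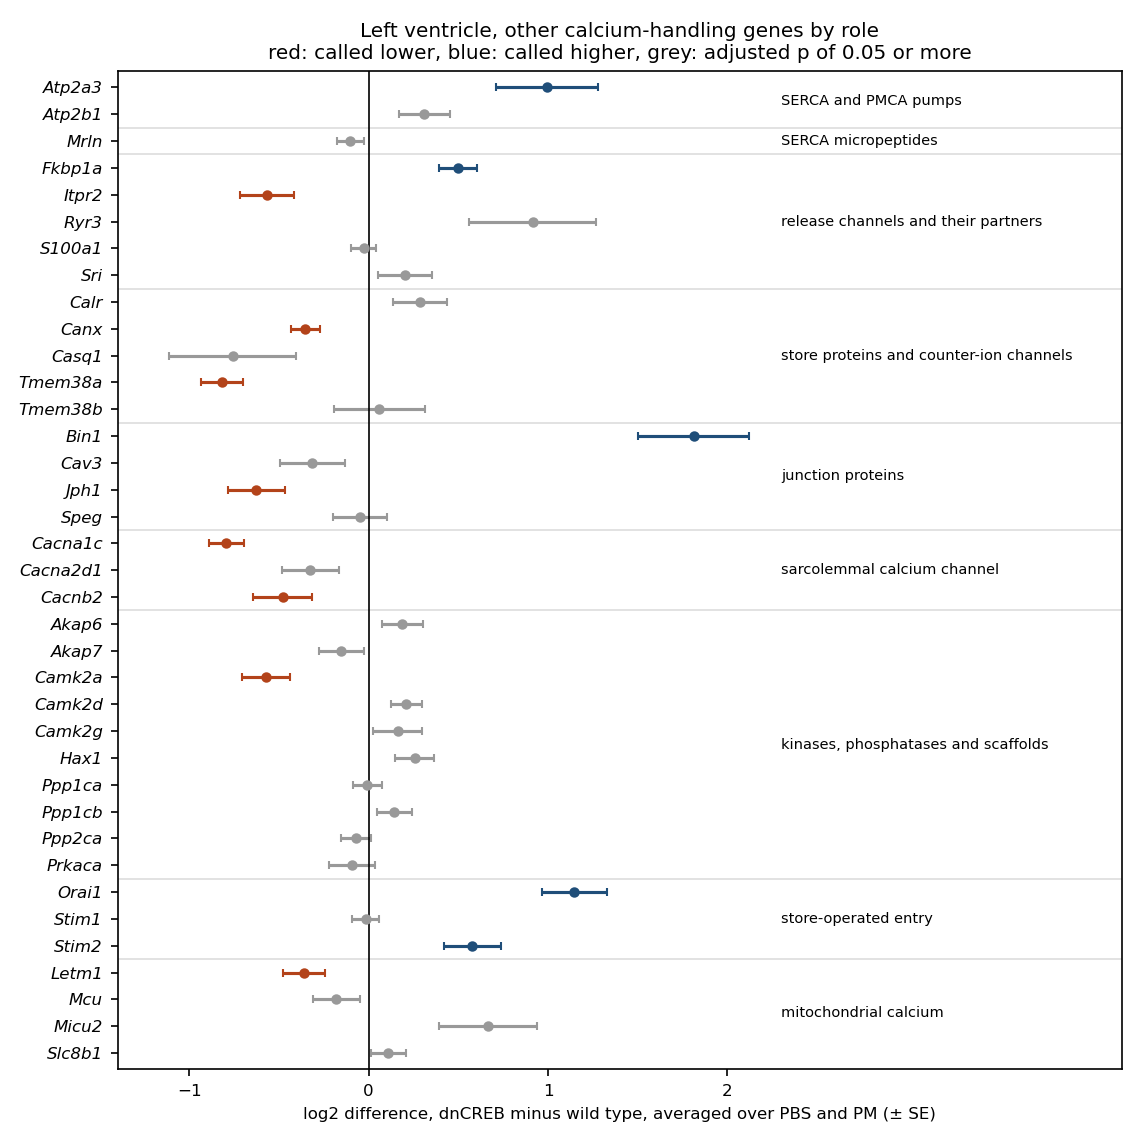
Log2 difference between dnCREB and WT hearts (x axis, averaged over PBS and PM, ± SE) for the 37 tested genes of the wider calcium list, grouped by role at the right. The called genes are 8 lower (red), with Tmem38a at -0.82 and Cacna1c at -0.79 lowest, and 5 higher (blue), with Bin1 at 1.81 highest.

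For each of the 7 genes called in a genotype comparison, the genes most like it over the 12 ventricle arrays were found by the root-mean-square difference of profiles centred on their own means. Atp2a2 was nearest to the ATP synthase genes Atp5g3 (0.035) and Atp5b (0.039), where the median gene differed from it by 0.32. Pln was nearest to Atp5g3 (0.041) and the ADP/ATP carrier gene Slc25a4 (0.042). Ryr2 was nearest to Cobll1 (0.15) and to the transcription factor gene Gata6 (0.17), Hrc to the co-chaperone gene Fkbp4 (0.12) and to Oxld1 (0.17), and Jph2 to Hdlbp (0.045) and the citrate synthase gene Cs (0.086). Trdn was nearest to Acp6 (0.24) and the fumarase gene Fh1 (0.24), and Asph to Mtdh (0.087) and Btbd10 (0.098). These are descriptions over arrays that share their genotype groups.

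Lung was read separately, since its values carry a different floor from those of the ventricle. The label "male" did not hold on every lung array either: Xist ran from 2.15 to 12.70 and Eif2s3y from 3.17 to 10.19. Sex class was not entered in the lung fits, so its part in the lung differences was not tested. Hrc was above 4 on 1 of the 12 lung arrays, dnCREB PBS replicate 1 at 4.33, and the other 8 genes were tested. None was called between genotypes, where 0.0259% of 11600 genes were called under PBS, 0% under PM and 0.00862% averaged, and where 5.42%, 3.97% and 4.85% had an unadjusted p under 0.05. None was called by PM either, averaged over genotypes, where 6.76% of all genes were called and 27.8% had an unadjusted p under 0.05. Ryr2 came nearest, with 7.13, 7.62 and 7.42 in WT PBS lungs, 6.46, 6.31 and 6.26 in WT PM lungs, 9.38, 7.46 and 6.68 in dnCREB PBS lungs and 6.26, 5.73 and 6.70 in dnCREB PM lungs. Its PM difference was -1.33 ± 0.38 (SE, adjusted p = 0.056), and without dnCREB PBS replicate 1, the highest array, it was -0.94 ± 0.21 (adjusted p = 0.0504). It was called lower without dnCREB PBS replicate 3 (-1.62 ± 0.32, adjusted p = 0.045), with array weights (-1.57, adjusted p = 0.030) and with all 24 arrays in the fit (-1.33, adjusted p = 0.0058), and the same probe set was called when all probe sets were tested together (adjusted p = 0.046).

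The same direction appeared for Pln in lung. Its main probe set differed by -0.86 ± 0.35 (SE, adjusted p = 0.14), while over all probe sets 1423359_at (-2.06 ± 0.38, adjusted p = 0.0097) and 1450952_at (-1.24 ± 0.33, adjusted p = 0.040) were called lower under PM, where 5.52% of 20249 probe sets were called lower (10.9% called). On 1423359_at the PBS lungs read 8.44, 7.34 and 7.64 (WT) and 9.17, 7.51 and 6.72 (dnCREB), and the PM lungs 6.07, 5.03 and 5.44 (WT) and 5.70, 5.97 and 6.23 (dnCREB). On both probe sets every PM lung lay below every PBS lung. Atp2a2 differed by -0.58 ± 0.25 (adjusted p = 0.15) and Jph2 by 0.59 ± 0.20 (adjusted p = 0.095). The lung array dnCREB PBS replicate 1 had the highest mean of cardiomyocyte markers, 9.66 against 7.32 to 8.56 on the other 11, and also the highest Atp2a2 (13.25), Pln (9.55), Ryr2 (9.38), Casq2 (7.98) and Hrc. The mean of the 8 macrophage markers moved with PM in lung, from 8.17 to 8.54 on the PBS arrays to 8.89 to 10.27 on the PM arrays. The lungs also held the atrial transcript Myl7 at 10.61 to 13.39 and Sln at 9.37 to 12.13, while the ventricular Myl2 lay between 2.35 and 2.46 on 10 arrays and read 6.26 in WT PBS replicate 1 and 4.97 in dnCREB PM replicate 1. The mean of the fast skeletal muscle markers was high on 5 lung arrays. These were replicate 3 of the dnCREB PM lungs, replicates 1 and 2 of the WT PM lungs, and replicates 1 and 3 of the dnCREB PBS lungs. Not every marker was high there: Myh4 stayed at or below 4 on all lung arrays, and Pvalb on all WT and dnCREB PM lungs. The mean of the 6 markers was 6.93 to 7.33 on those 5 arrays and 2.79 to 3.98 on the other 7. Mylpf, a fast myosin light chain gene, read 8.60 to 9.72 against 2.37 to 3.08. The parts of heart muscle, skeletal muscle and macrophage RNA in the lung values were not tested.

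**Figure D4:**
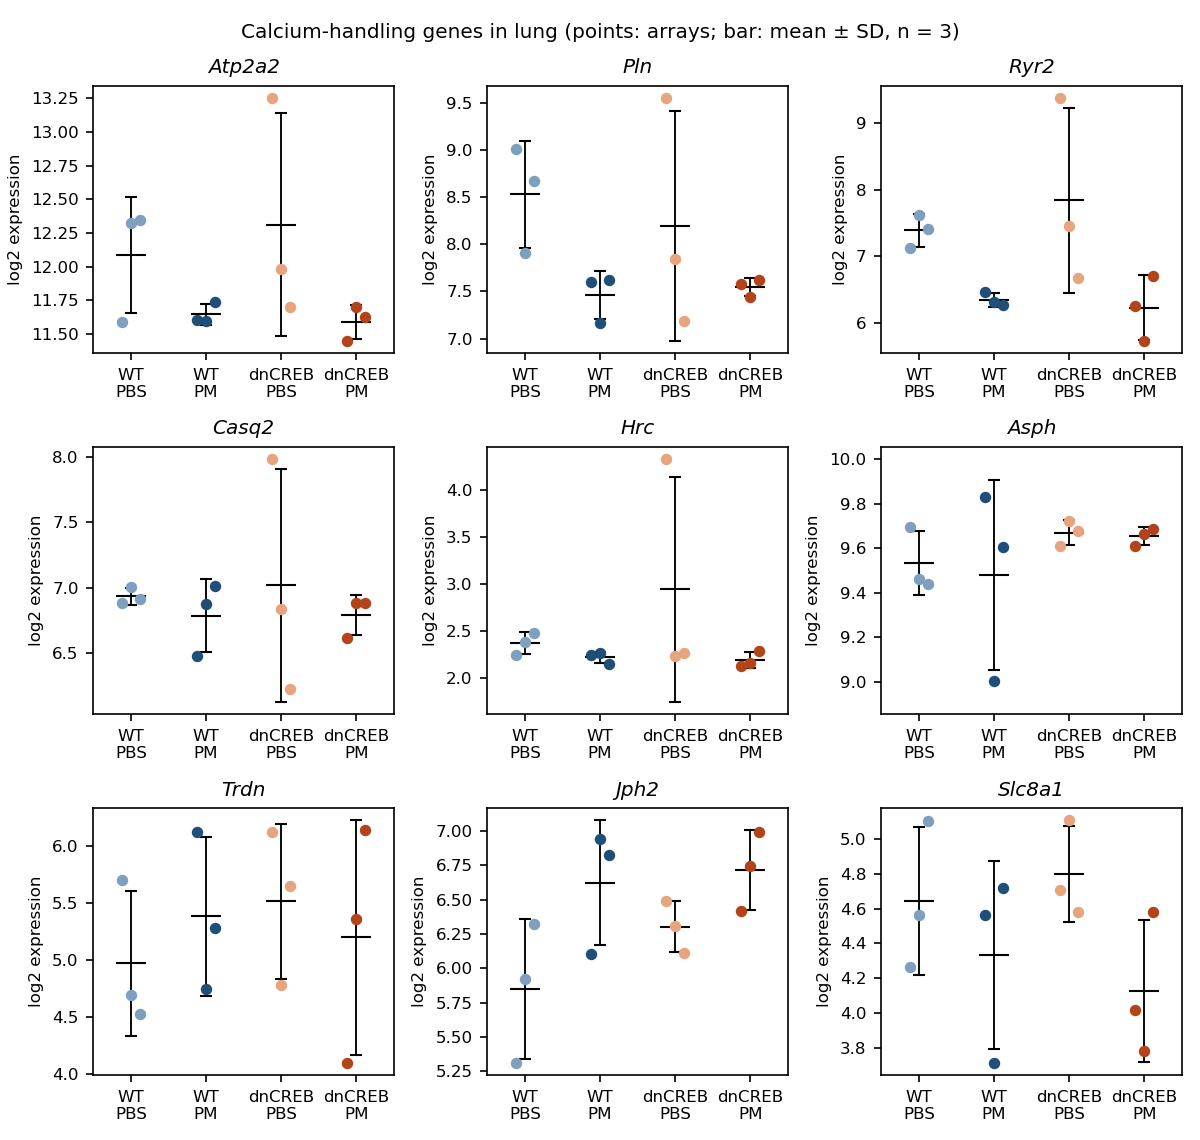
Log2 expression (y axis, deposited GCRMA values, each panel on its own scale) of the 9 genes in the 4 lung groups, with each array as a point and the mean ± SD of n = 3 as bars. The dnCREB PBS array at 9.38 stands highest for Ryr2, and PM lungs read 5.73 to 6.70 where PBS lungs read 6.68 to 9.38.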

How the data were processed

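RNA from 12 ventricle and 12 lung samples was measured on Affymetrix arrays. The authors deposited 1 log2 value per probe set and array, made with GCRMA, per the submitters' processing notes; the version is not given in the sources used here. GCRMA corrects background by probe sequence, normalizes between arrays and summarises each probe set. Array minima were -0.22 to -0.20 in ventricle and 0.52 to 0.56 in lung, which points to separate normalization, and each tissue was fitted alone. Of 45037 probe sets, 34945 matched 1 gene symbol in GEO's platform annotation, with symbols updated through gene identifiers. The rest, 932 with several and 9160 with none, were left out. A gene entered the test with at least 3 arrays above a log2 value of 4.

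Each tissue was fitted in limma 3.58.1 (R 4.3.3) as 4 group means, with Benjamini-Hochberg adjustment at 0.05, and tested on simulated data. Tables used Python 3.11.15 and pandas 2.3.3, figures matplotlib 3.10.9. Group values are means with SD over 3 arrays, and differences carry limma's SE. Named genes were the 9, the called genes of the wider list, and the 2 most alike genes per called member. The rule for the wider list was up to 8 called genes per comparison by smallest p. Cacnb2, Letm1 and Stim2 were named beyond that rule. Cav3, Stim1, Camk2d and Camk2g, not called in the main fit, were also named after their values were seen. The members and lists were chosen with earlier results of these data known. Alternatives were other filters, scalings, probe sets, arrays in the fit, variance models, a replicate block, sex class as a covariate and leaving out arrays. Deviations of same-numbered ventricle arrays correlated at -0.30 to 0.31 over 18 pairs, so the numbers were not taken as pairs.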

Additional observations from a re-analysis of the deposited data

How the results depend on the processing

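The count of called genes among the 9 was 4 in the main test under PBS, 4 under PM and 7 averaged over both. Under PBS it was 2 with all 24 arrays in the fit and 0 with sex class as a covariate. Under PM it was 2 with only the groups compared, 1 with all 24 arrays, 2 with the replicate block and 2 with sex class. Averaged, it was 2 with sex class. Leaving out 1 array at a time gave 1 to 3 under PBS (1 without dnCREB PBS replicate 3, and 2 without WT PBS replicate 2 or 3), 1 to 3 under PM (1 without WT PM replicate 2, and 2 without WT PM replicate 1, WT PM replicate 3 or dnCREB PM replicate 3) and 6 to 7 averaged. The replicate block ended the averaged call of Atp2a2 (adjusted p = 0.066) and no other averaged call among the 9. Median centring (adjusted p = 0.082) and array weights (adjusted p = 0.059) also ended it, and fitting all 24 arrays ended the averaged calls of Atp2a2 (adjusted p = 0.41) and Pln (adjusted p = 0.52). In lung the count under PM, averaged over genotypes, was 0 in the main test, 2 over all probe sets (Pln and Ryr2), 4 with all 24 arrays (Atp2a2, Pln, Ryr2 and Jph2), 2 with array weights (Ryr2 and Jph2) and 0 to 1 with an array left out, called for Jph2 without WT PM replicate 1 and for Ryr2 without dnCREB PBS replicate 3.

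Direction turned with the probe set for Asph (1425274_at -0.053 under PBS, -0.93 under PM and -0.49 averaged; 1425275_at -0.20, -1.11 and -0.66) and for Trdn 1426143_at (0.20 under PM and 0.086 averaged). The genotype shift of Atp2a2 minus Pln was 0.02 in the main setting. With other Atp2a2 probe sets it was -0.011 (1452363_a_at), -0.17, -0.79, -1.61 and -2.07, and with other Pln probe sets 0.13 and 0.13. The shift of Slc8a1 minus Atp2a2 was 0.69, and it was 0.0033 with Slc8a1 1425817_a_at and 1.51, 2.32 and 2.79 with the dimmer Atp2a2 probe sets. The cause of these changes was not tested.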
